A study of Mus musculus with 7 samples.

Results

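The MiT/TFE family is a group of 4 closely related transcription factors, encoded in the mouse by Tfec, Tfeb, Tfe3 and Mitf. The genes were found by an exact match of their symbols in the deposited table of read counts, and all 4 were present, each once, among 57010 genes. All 4 also passed the filter on low counts, which left 15981 genes for testing. The table holds 7 RNA-seq libraries of resident peritoneal macrophages from C57BL/6 mice, sorted alive by CD11b, MHC class II and Tim4, a surface receptor of resident macrophages. The steady-state group (3 libraries) came from control mice, and the day 12 group (4 libraries) came from mice 12 days after injection of m204 MTO, an abbreviation that the labels do not spell out. The study's title places the work in peritoneal colorectal cancer. No age, sex or genetic modification is given for either group, and the sample titles give 4 day 12 replicates where the RNA protocol speaks of 3 per condition.

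MiT/TFE factors are basic helix-loop-helix leucine zipper proteins that bind DNA as homodimers or as heterodimers with each other. They recognise E-boxes, above all the letters CACGTG in the promoters of lysosomal and autophagy genes. When amino acids are plentiful, the kinase mTORC1 phosphorylates Tfeb, Tfe3 and Mitf at the lysosome and 14-3-3 proteins hold them in the cytoplasm, and in starved or stressed cells calcineurin removes the phosphates and the factors enter the nucleus. Tfec differs from its relatives in being expressed mainly in macrophages, where interleukin 4 is known to induce it through STAT6. Mitf is best known from melanocytes, mast cells and osteoclasts. Because much of this control acts on the proteins, transcript levels show only how much message each gene gave.

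The promoters of the family were searched for 4 short sequences on both strands, in RefSeq windows from 250 bases before to 50 bases after each start site, on the build GRCm38.p6. They were the E-box CACGTG, the longer CLEAR element (the E-box preceded by GT and followed by AC), the M-box core CATGTG, and TTC separated by any 4 bases from GAA, the spacing that STAT6 prefers. The 4 family genes had 1 window for Tfec, 3 for Tfeb, 2 for Tfe3 and 3 for Mitf. No E-box, CLEAR element or M-box core lay in any of these windows. The STAT6 spacing occurred once in the Tfec window and once in the third Tfeb window, against 8.01% of all 27025 genes with a window. It is shown here because Tfec is the family member with a known STAT6 response, and Retnla, an interleukin 4 target that rose at day 12, is given for comparison. Of the 11 rising genes of the interleukin 4 list with a window, only Retnla and Pdcd1lg2 held it. Capitals mark the match, and the stretches shown end at or before the last base upstream of the start site.
Tfec, chr6:16898442-16898691, minus strand: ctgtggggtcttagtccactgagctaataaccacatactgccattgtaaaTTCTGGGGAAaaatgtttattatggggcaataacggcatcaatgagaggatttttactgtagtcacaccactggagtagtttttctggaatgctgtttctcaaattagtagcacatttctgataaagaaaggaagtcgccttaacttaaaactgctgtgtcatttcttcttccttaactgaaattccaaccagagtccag
Tfeb, chr17:47785494-47785553, plus strand: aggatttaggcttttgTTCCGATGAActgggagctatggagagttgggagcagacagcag
Retnla, chr16:48842439-48842498, plus strand: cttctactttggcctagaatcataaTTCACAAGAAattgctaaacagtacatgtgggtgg
The match began 200 bases upstream of the Tfec start site, 234 bases upstream of the third Tfeb start and 145 bases upstream of the Retnla start. A match of letters is no evidence that a factor binds there.

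The libraries held 32077050 to 38586694 counts each, so 3 counts, the smallest number treated as a floor, correspond to 0.0754 to 0.0958 CPM (counts scaled to the library total, here with edgeR's TMM factors). Of the genes tested, 20.3% passed an adjusted p of 0.05 between the groups (10.1% higher and 10.2% lower at day 12), and the median log2 fold change over all of them was 0.003. All 12 macrophage markers examined, among them Csf1r, Adgre1 and Timd4, were expressed well enough to be tested. At day 12, 4 of them were higher (Adgre1, Itgam, Gata6 and Mertk) and 3 lower (Csf1r, Timd4 and Lyz2). Their summed level was 57838 to 60261 CPM in steady state and 22857 to 29663 afterwards, a sum dominated by the lysozyme gene Lyz2, whose mean was 42101 CPM before and 4624 after. By the correlation of log2 CPM the day 12 libraries were closest in the pairs 1 and 3 (0.985) and 2 and 4 (0.978), with 0.968 to 0.976 for the remaining pairs. Day 12 library 4 had a mitochondrial share of 0.858% against 1.66% to 1.79% in the other day 12 libraries, and without it 4599 genes were called in place of 3242. Without steady-state library 1, 2 or 3 the number of genes called was 1868, 1804 or 1761. Where nothing says that libraries came from separate mice, p-values measure only the spread between these libraries.

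Between steady state and day 12, the family changed its composition. Tfec rose by 2.08, Mitf rose by 0.80 and Tfeb fell by 1.02 on the log2 scale, while the log2 difference of Tfe3, 0.10, did not pass the test. In all, 3 of the 4 members passed, 2 upward and 1 downward, where 20.3% of all tested genes did. The same 3 had groups that did not overlap, which held for 35% of all tested genes.

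Tfec (ENSMUSG00000029553, 6:16833372-16898440 on GRCm39, minus strand) encodes the member that lacks the strong activation domain of its relatives and is largely restricted to the myeloid lineage. Its level was 8.10, 8.91 and 10.03 CPM in the 3 steady-state libraries and 35.1, 41.0, 41.3 and 35.3 CPM at day 12. Every day 12 library was above every steady-state library, and the libraries within each group lay close together. The log2 fold change was 2.08 ± 0.128 (SE, 3 against 4 libraries; edgeR adjusted p = 4.28e-05), which ranked Tfec 14 by p among 15981 genes. Its fold was larger than that of 97.5% of tested genes. Leaving out any 1 library gave log2 values from 2.03 to 2.16 with adjusted p of at most 0.00072.

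Tfeb (ENSMUSG00000023990, 17:48047955-48103344, plus strand), the factor known as the main activator of lysosomal genes, moved the other way. It stood at 28.6, 21.8 and 24.6 CPM in steady state and at 10.7, 9.48, 11.8 and 17.3 at day 12. All 4 day 12 libraries were lower, and library 4 was the nearest to the steady-state values. The log2 fold change was -1.02 ± 0.202 (adjusted p = 0.00742). Without day 12 library 4 it was -1.22 (adjusted p = 0.000661), and the largest adjusted p with any single library left out was 0.0471, without steady-state library 1.

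Tfe3 (ENSMUSG00000000134, X:7628799-7641441, plus strand), which shares lysosomal targets with Tfeb, was counted at 112, 114 and 130 CPM in steady state and at 124, 118, 128 and 138 at day 12. The groups overlapped. The log2 difference was 0.10 ± 0.104 (adjusted p = 0.551). It stayed between 0.06 and 0.16 with any 1 library left out.

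Mitf (ENSMUSG00000035158, 6:97784013-97998310, plus strand), the regulator of pigment, mast cell and osteoclast genes that gives the family its name, had 32.8, 31.0 and 34.5 CPM in steady state. At day 12 it had 70.4, 48.7, 68.9 and 40.1 CPM. All day 12 libraries were higher, but they fell into a higher pair (libraries 1 and 3) and a lower pair (2 and 4). Their spread was 14.98 CPM (SD) against 1.74 in steady state. These were also the closest day 12 pairs over all tested genes (r = 0.985 and 0.978 for log2 CPM). The number of genes with this order was not counted, and it cannot be called particular to Mitf or the genes below. The log2 fold change was 0.80 ± 0.195 (adjusted p = 0.0189). This call was lost without any one of the steady-state libraries, with adjusted p of 0.0608, 0.0824 and 0.0632 without library 1, 2 and 3, while the log2 value remained between 0.76 and 0.83. Without day 12 library 4 it was 0.94 (adjusted p = 0.00289). Only a processed pseudogene on the other strand, with 6 reads in all libraries, overlaps Mitf in the deposited table, and no annotated gene overlaps the other members.

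**Figure D1:**
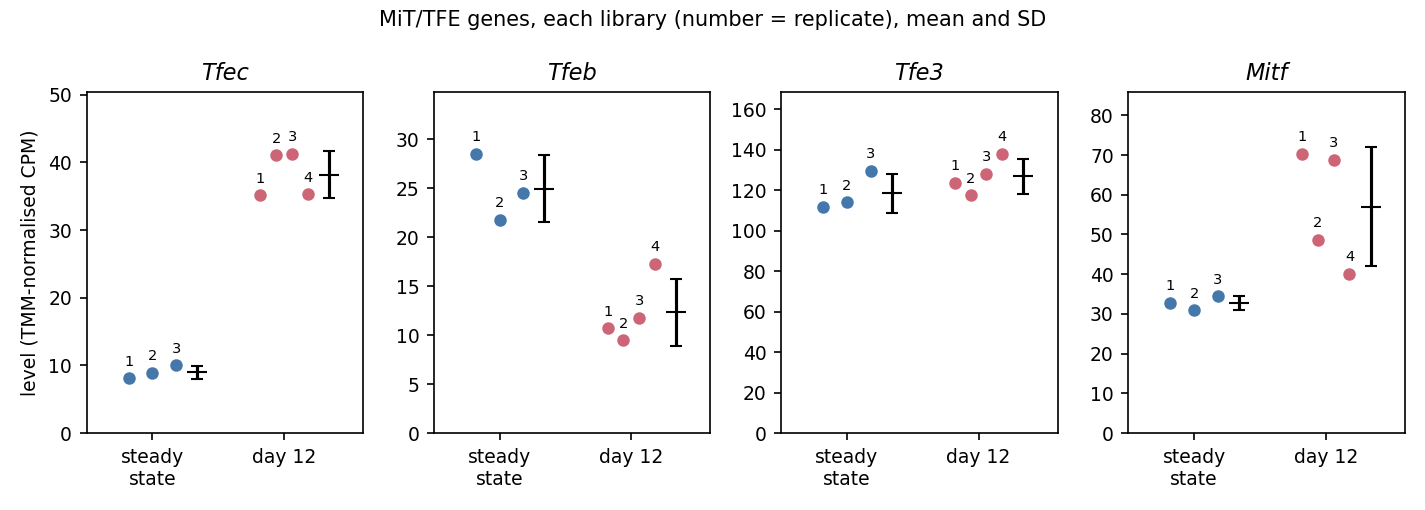
Level of each MiT/TFE gene in CPM on the vertical axis (each panel with its own scale from 0), for 3 steady-state and 4 day 12 libraries on the horizontal axis. Points are libraries labelled by replicate number, and the bars beside them give the mean and SD. Tfec lies at 8.10 to 10.03 CPM in steady state and at 35.1 to 41.3 CPM at day 12, Tfeb is lower and Mitf higher in all day 12 libraries, and the Tfe3 points overlap.

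Levels of different genes were compared per kilobase of merged exon, with lengths of 5594 (Tfec), 5669 (Tfeb), 9261 (Tfe3) and 6196 bases (Mitf) from the GENCODE annotation of GRCm38. Because a merged length counts the exons of all isoforms, it understates genes with many alternative exons. In steady state the order on this scale was Tfe3 (12.8 ± 1.05 CPM per kb, SD, n = 3), Mitf (5.29 ± 0.281), Tfeb (4.41 ± 0.598) and Tfec (1.61 ± 0.173). Mitf and Tfeb could not be separated there, since their libraries overlapped (5.0 to 5.56 against 3.85 to 5.04). At day 12 the order was Tfe3 (13.7 ± 0.938, n = 4), Mitf (9.20 ± 2.42), Tfec (6.83 ± 0.614) and Tfeb (2.17 ± 0.611). Tfec had moved from the last place to the third, and its range of 6.28 to 7.38 CPM per kb overlapped that of Mitf (6.47 to 11.4).

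As a share of the family's summed level per kb, Tfec went from 6.68% ± 0.533 (SD, n = 3) in steady state to 21.5% ± 2.42 (n = 4) at day 12. Tfeb went from 18.3% ± 2.44 to 6.85% ± 2.07. Tfe3 remained the largest share, with 53.1% ± 2.14 and 43.1% ± 3.82. The Mitf share was 21.9% ± 0.278 and 28.6% ± 6.06, and day 12 library 4, at 21.0%, lay below all steady-state libraries. The summed level was 24.1 ± 1.48 CPM per kb in steady state and 31.9 ± 2.17 at day 12, with no overlap (22.8 to 25.7 against 29.6 to 34.4).

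**Figure D2:**
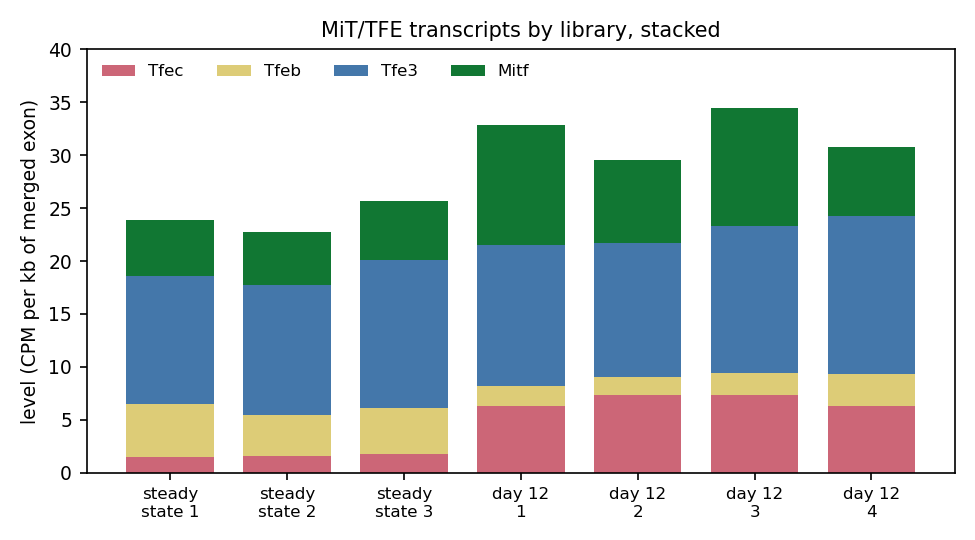
Stacked level of the 4 MiT/TFE genes in CPM per kb of merged exon (vertical axis) in each of the 7 libraries (horizontal axis), with 1 colour per gene. The Tfec segment grows from 1.45 to 1.79 CPM per kb in steady state to 6.28 to 7.38 at day 12, while the Tfeb segment shrinks and the Tfe3 segment is the largest in every library.

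Whether Tfec changed by another factor than its relatives was tested on the ratio of counts within each library (0.5 added to each count), which does not depend on the scaling of libraries. The log2 ratio of Tfec to Tfeb was -1.82, -1.29 and -1.29 in steady state and 1.71, 2.11, 1.80 and 1.03 at day 12. Tfeb was thus the more abundant read source in every steady-state library and Tfec in every day 12 library. The mean difference was 3.13 on the log2 scale (exact two-sided permutation test over 35 splits, p = 0.0286, adjusted over the 3 ratios 0.0286, the smallest p this design can give). The difference was 1.98 for Tfec to Tfe3 and 1.32 for Tfec to Mitf, each with the same exact p of 0.0286 and with no overlap of the groups. These ratios reuse the counts of the fits above, and the members were chosen with earlier results of these data known. Their p-values are therefore no separate support. The Tfec to Mitf ratio was below 0 on the log2 scale in all 7 libraries, at -2.02 to -1.78 in steady state and -1.0 to -0.18 at day 12. With 1 library left out the smallest possible p is 0.0667 or 0.1, and the 3 differences then ranged from 2.96 to 3.34, 1.91 to 2.06 and 1.202 to 1.474.

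The genes with the profile most like each member were ranked by Pearson's r of log2 CPM over the 7 libraries, among 12336 genes with a symbol. This is a description with no test, since the points share libraries and the difference between groups dominates r. Arg1, the arginase typical of interleukin 4-treated macrophages, was nearest to Tfec (r = 0.995), followed by Phyh, a peroxisomal enzyme (r = 0.995), and Ric1, part of a Golgi trafficking complex (r = 0.994). Phyh stood at 30.2 to 35.6 CPM in steady state and 58.9 to 66.8 at day 12. Soga1 (r = 0.996), Sun2, a protein of the nuclear envelope (r = 0.993), and Trim3, a ubiquitin ligase (r = 0.984), were nearest to Tfeb. Each of these 3 fell and, like Tfeb, was highest among day 12 libraries in library 4: Soga1 had 71.4, 67.0, 82.3 and 107 CPM there. Since they were chosen by r to Tfeb over the same libraries, this likeness is no separate observation.

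Vps35l, part of an endosomal recycling complex, Nudt9 and Zdhhc23 were nearest to Tfe3 (r = 0.976, 0.971 and 0.970), and none of them passed the test. Vps35l overlaps Knop1 on the other strand, and whether reads were counted by strand is not stated in the labels. Mitf was followed most closely by Fbxo22 (r = 0.996), Cpeb4, a regulator of mRNA polyadenylation (r = 0.995), and Il1rl1, the receptor of interleukin 33 (r = 0.991). Il1rl1 had 12.8, 9.08 and 11.4 CPM in steady state and 91.6, 43.5, 109 and 22.5 at day 12, a log2 fold change of 2.59 ± 0.562 (adjusted p = 0.0188). Its day 12 libraries showed the same higher pair 1 and 3 as Mitf, which its choice by r to Mitf favours. The call of Il1rl1 was lost without steady-state library 1, 2 or 3 (adjusted p 0.0557, 0.0757 and 0.0733). Fbxo22 passed narrowly (0.37 ± 0.112, adjusted p = 0.0441) and lost its call without steady-state library 1, 2 or 3 (0.105, 0.167 and 0.133) or day 12 library 1 or 3 (0.1 in both). Cpeb4 did not pass (0.48 ± 0.15, adjusted p = 0.051), but did without day 12 library 2 (0.0392) or 4 (0.00729). It also passed in 7 of the 8 alternatives that removed no library (adjusted p 0.00744 to 0.0484), limma-voom being the exception. The 0.00744 came from a block on replicate number, whose group difference does not use day 12 library 4.

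Upstream of the family lies the nutrient-sensing machinery that holds the factors at the lysosome. Of 35 tested genes in this list 2 rose and 4 fell, and the median log2 fold change was -0.01. The share called, 17.1%, was near the 20.3% of all genes tested. This list and those below were chosen with earlier results of these data known, so their shares are descriptions only. Sesn1, a stress-induced brake on mTORC1, fell most clearly: 192, 180 and 210 CPM in steady state and 86.9, 87.1, 68.9 and 66.4 at day 12 (log2 fold change -1.33 ± 0.13, adjusted p = 0.000242). Rragd, one of the Rag GTPases that bring Tfeb to mTORC1 and itself a known target of the family, was lowly expressed in both groups, at 1.01 to 2.11 CPM against 0.226 to 0.447 (-2.13 ± 0.379, adjusted p = 0.00437). Fnip2, a partner of folliculin, fell by 0.61 on the log2 scale (adjusted p = 0.00606).

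Depdc5, part of the GATOR1 brake on mTORC1, fell by 0.43 (adjusted p = 0.0115) but not without steady-state library 1 (0.0832) or 3 (0.0502). Folliculin itself (Flcn) did not pass, at 78.5 to 90.9 CPM in steady state and 74.0 to 95.8 at day 12. The rises, of Lamtor2, a subunit of the lysosomal Ragulator complex, and Mlst8, a subunit of mTORC1, were both 0.38 on the log2 scale (adjusted p = 0.0441 each). They were lost without steady-state library 1, 2 or 3 (adjusted p 0.125 to 0.149), Lamtor2 also without day 12 library 2 (0.0574) or 3 (0.0755), and Mlst8 without day 12 library 1 (0.0992) or 3 (0.0527). In all, 3 genes of the list were called without steady-state library 1 or 3, and 11 without day 12 library 4.

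Among kinases, phosphatases and anchoring proteins that act on the MiT/TFE proteins, 3 of 31 tested genes rose and 3 fell, with a median log2 fold change of -0.12. This share, 19.4%, was near the 20.3% of all genes. Prkaa2, the alpha2 catalytic subunit of the energy sensor AMPK, had 1.04, 1.204 and 1.15 CPM in steady state and 19.3, 8.97, 25.9 and 7.81 at day 12 (3.77 ± 0.477, adjusted p = 0.00109). All day 12 libraries were higher, again with libraries 1 and 3 above 2 and 4, the closest pairs over all tested genes. Prkca, protein kinase C alpha, rose from 21.8 to 34.3 CPM to 43.9 to 69.4 CPM (1.18 ± 0.202, adjusted p = 0.00372). Cdk6, a kinase reported to phosphorylate Tfeb in the nucleus, rose by 0.64 (adjusted p = 0.0154), but not without steady-state library 2 (0.0503) or 3 (0.0831). Ywhaq, the 14-3-3 theta protein, fell from 82.0 to 90.0 CPM to 54.7 to 63.0 CPM (-0.55 ± 0.0974, adjusted p = 0.00435).

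Ppp3ca, a catalytic subunit of calcineurin, and Mapk3, the kinase ERK1, also fell (-0.51 and -0.49, adjusted p = 0.0351 and 0.041). Neither passed without steady-state library 1, 2 or 3 (0.0915 to 0.131 for Ppp3ca and 0.101 to 0.172 for Mapk3). Without day 12 library 1 or 2 the values were 0.0526 and 0.0799 for Ppp3ca and 0.11 and 0.123 for Mapk3, and Mapk3 was also lost without day 12 library 3 (0.0648). Mapk3 did not pass with upper-quartile scaling (0.0586) or a filter of 1 CPM (0.063). The list counted 3 calls without steady-state library 2 or 3 and 12 without day 12 library 4. Mcoln1, the lysosomal calcium channel that activates calcineurin, did not pass, at 48.3 to 55.7 CPM in steady state and 38.7 to 53.0 at day 12.

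Downstream, the lysosomal genes did not change in 1 direction. Of 37 tested lysosomal enzyme genes 8 rose and 5 fell, or 35.1% against 20.3% of all genes, with a median log2 fold change of 0.12. Rising genes were 21.6% against 10.1% of all genes, and falling genes 13.5% against 10.2%. Ctsl, the cysteine protease cathepsin L, rose from 138, 200 and 194 CPM in steady state to 375, 389, 475 and 515 CPM at day 12 (1.31 ± 0.173, adjusted p = 0.00104). Gla, alpha-galactosidase A, had 12.6, 16.9 and 14.1 CPM in steady state and 28.9, 30.5, 37.5 and 31.8 at day 12 (1.15 ± 0.143, adjusted p = 0.000782). Both had groups that did not overlap, as did 35% of all tested genes. Acp5, the tartrate-resistant acid phosphatase and a classical Mitf target in osteoclasts, rose from 0.99 to 1.72 CPM to 4.34 to 7.08 CPM (1.91 ± 0.272, adjusted p = 0.00151). Gm2a, an activator of ganglioside breakdown, rose by 0.99 (adjusted p = 0.00685).

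Smaller rises were called for Glb1, the lysosomal beta-galactosidase (0.50, adjusted p = 0.0197), Ctsa, cathepsin A (0.47, adjusted p = 0.0356), and Ctsh, cathepsin H (0.31, adjusted p = 0.0497). None of these 3 passed without steady-state library 1, 2 or 3 (adjusted p 0.0602 to 0.215). Ctsa was also lost without day 12 library 1 (0.052) or 3 (0.0757), and Ctsh without day 12 library 1, 2 or 3 (0.0817, 0.0581 and 0.0936). Ctsa overlaps Pltp on the other strand, whose own level was 1747 CPM in steady state and 466 at day 12, and Glb1 overlaps Tmppe on the same strand.

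The falling enzyme genes were Arsb, arylsulfatase B, Lipa, the lysosomal acid lipase, Smpd1, acid sphingomyelinase, Gusb, beta-glucuronidase, and Hexa, the hexosaminidase alpha subunit. Arsb had 58.2, 49.8 and 57.0 CPM in steady state and 27.1, 26.9, 32.5 and 22.6 at day 12 (-1.01 ± 0.133, adjusted p = 0.000988). Every day 12 library of Arsb was lower. Lipa fell by 0.60 (adjusted p = 0.00809), Smpd1 by 0.56 (0.0176), Gusb by 0.55 (0.0149) and Hexa by 0.37 (0.026). Smpd1 and Hexa were lost without steady-state library 1, 2 or 3 (0.0602 to 0.12) and without day 12 library 1 or 2 (0.0526 to 0.0839), and Gusb without steady-state library 1 (0.0526) or 2 (0.0787). The abundant proteases Ctsd and Ctsb did not pass: Ctsd had 1339 to 1671 CPM in steady state and 1691 to 3407 at day 12. The list counted 7 calls without steady-state library 1 or 2, 8 without steady-state library 3 and 20 without day 12 library 4.

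An E-box lay in the promoter windows of 10 of 31 lysosomal enzyme genes that had one (32.3%), against 8.09% of all 27025 genes. The list was drawn up as targets of a family that recognises these letters, so this excess is no separate result. None of the 31 genes held the CLEAR element. Of the 8 rising enzyme genes 6 had a window and 4 held an E-box, namely Gla, Ctsl, Ctsa and Glb1. None of the 5 falling enzyme genes did, and 6 of the 20 genes with a window that did not pass held one. The other target lists showed the opposite order: in the lysosomal membrane list 1 of 4 rising genes held an E-box against 8 of 16 that did not pass, and in the autophagy list 0 of 3 against 4 of 17. These counts are small and were not tested. The upstream stretches of the 4 rising enzyme genes with an E-box are shown, with these letters, which the MiT/TFE proteins recognise, in capitals. Genes that did not rise held the letters too and are not shown, among them Lamp1 (4 sites), Mcoln1 and Ctsd (2 each) and Dpp7, which fell (1).
Gla, chrX:134601181-134601245, minus strand: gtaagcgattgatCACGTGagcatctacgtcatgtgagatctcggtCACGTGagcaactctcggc
Ctsl, chr13:64370711-64370770, minus strand: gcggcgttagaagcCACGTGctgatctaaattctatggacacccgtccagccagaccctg
Ctsa, chr2:164833713-164833772, plus strand: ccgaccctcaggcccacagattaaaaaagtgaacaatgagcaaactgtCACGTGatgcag
Glb1, chr9:114401003-114401062, plus strand: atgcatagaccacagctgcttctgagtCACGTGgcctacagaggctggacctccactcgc
Gla held 2 E-boxes, 227 and 194 bases upstream of its start. The site shown for Ctsa lies 12 bases upstream of its second annotated start and is 1 of 2 in that window. Other bHLH-ZIP proteins bind the same letters.

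Of 27 tested genes of the lysosomal membrane and its proton pump, 4 rose and 4 fell, or 29.6% against 20.3% of all genes, and the median was 0.09. Cd63, a tetraspanin of late endosomes, fell from 31.5, 46.9 and 54.4 CPM to 3.13, 6.81, 5.21 and 9.08 CPM (-2.87 ± 0.335, adjusted p = 0.000822). Scarb2, a receptor of the lysosomal membrane, rose from 226, 269 and 250 CPM to 481, 443, 370 and 559 CPM (0.90 ± 0.151, adjusted p = 0.00326). In both genes the groups were apart, as in 35% of all tested genes. Slc11a1, a metal ion transporter of phagosomes, fell by 0.88 (adjusted p = 0.00606) and Atp6v1g1, a subunit of the proton pump, by 0.54 (adjusted p = 0.00416).

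Proton pump subunits moved both ways: Atp6v0c and Atp6v1e1 rose (0.59 and 0.36, adjusted p = 0.0324 and 0.0364), and Atp6v1b2 fell (-0.37, adjusted p = 0.039). Slc36a1, a lysosomal amino acid transporter with 2 E-boxes in its promoter window, rose by 0.51 (adjusted p = 0.039). None of these 4 passed without steady-state library 1, 2 or 3 (0.0808 to 0.162). Without day 12 library 1, Atp6v1e1 (0.0565), Slc36a1 (0.0791) and Atp6v1b2 (0.117) were lost, as were Atp6v1b2 without day 12 library 2 (0.0898) and Atp6v1e1 without day 12 library 3 (0.0801). Atp6v1b2 did not pass with upper-quartile scaling (0.0577) or with a filter of 1 CPM (0.0539). In this list 4 genes were called without any one steady-state library, 5 without day 12 library 1 and 12 without day 12 library 4. Lamp1, the most widely used lysosomal marker, did not pass, with 1370 to 1570 CPM in steady state and 1315 to 1482 at day 12.

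The autophagy genes showed 3 rises and 3 falls among 29 tested, with a median of 0.02. This share, 20.7%, was near the 20.3% of all genes. Wipi1, a phosphoinositide-binding protein of early autophagosomes, rose from 16.5, 23.1 and 18.8 CPM to 38.6, 38.6, 46.9 and 46.7 CPM (1.13 ± 0.146, adjusted p = 0.000923). Of these 6 genes it was the only one called in every fit with 1 library left out. Atg9a and Atg9b, lipid scramblases of the autophagosome, rose by 0.52 (adjusted p = 0.0356) and 1.35 (adjusted p = 0.036). Atg9a overlaps Ankzf1 on the other strand, and Atg9b did not exceed 0.653 CPM in any library. Ulk2, an initiating kinase, Rab7, a GTPase of late endosomes, and Gabarapl1 fell by 0.56, 0.39 and 0.69 (adjusted p = 0.0222, 0.0243 and 0.0416), and the groups of Gabarapl1 overlapped.

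Atg9a and Rab7 were lost without steady-state library 1, 2 or 3 (0.0568 to 0.137) or day 12 library 1 (0.0623 and 0.0726), and Atg9a without day 12 library 3 (0.052). Ulk2, Atg9b and Gabarapl1 were lost without steady-state library 2 or 3 (0.068 to 0.162) and without day 12 library 2 (0.0556 to 0.0928). Atg9b and Gabarapl1 were also lost without day 12 library 1 (0.0681 and 0.0838), and Gabarapl1 without day 12 library 3 (0.0756), with upper-quartile scaling (0.0547) or with a filter of 1 CPM (0.0591). The list counted 1 call without steady-state library 2 or 3, 2 without day 12 library 1 and 10 without day 12 library 4, and 10 with DESeq2. Sqstm1, the cargo receptor p62, did not pass, at 134 to 159 CPM in steady state and 133 to 190 at day 12.

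Known targets of the family in macrophages and osteoclasts leaned downward. Of 19 tested genes 3 rose and 8 fell, or 15.8% and 42.1% against 10.1% and 10.2% of all genes, and the median was -0.43. Itgb3, the integrin beta 3 subunit, fell from 70.4, 55.7 and 73.1 CPM to 9.35, 10.6, 7.84 and 4.38 CPM (-3.04 ± 0.261, adjusted p = 0.000151). Csf3r, the receptor of granulocyte colony-stimulating factor, fell from 431 to 447 CPM to 107 to 196 CPM (-1.46 ± 0.187, adjusted p = 0.00088). Trem2, a lipid-sensing receptor, fell by 1.602 (adjusted p = 0.00355) and Tnfrsf11a, the receptor RANK of the osteoclast lineage, by 1.03 (adjusted p = 0.00187).

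The rising genes of that list were Acp5, Bhlhe40 and Ppargc1b. Bhlhe40, an E-box repressor that macrophages use in proliferation, had 217, 193 and 208 CPM in steady state and 549, 403, 504 and 477 at day 12 (1.23 ± 0.13, adjusted p = 0.000353). Ppargc1b, a coactivator of mitochondrial genes, rose from 3.33 to 5.90 CPM to 14.3 to 17.3 CPM (1.81 ± 0.198, adjusted p = 0.000432). In both the groups did not overlap, which held for 35% of all tested genes. Rragd and Fnip2, described above, also belong to the list. Dpp7, a lysosomal peptidase, fell by 0.55 (adjusted p = 0.0131), but not without steady-state library 1, 2 or 3 (0.056, 0.0519 and 0.0669). Csf1r, the receptor of macrophage colony-stimulating factor, fell by 0.43 (adjusted p = 0.0304), from 1886 to 2236 CPM to 1409 to 1616 CPM. It was lost without steady-state library 1, 2 or 3 (0.107, 0.0708 and 0.15) or day 12 library 1, 2 or 3 (0.0737, 0.0818 and 0.071). Csf1r overlaps Hmgxb3 on the other strand. Gpnmb, a frequently used reporter of MiT/TFE activity, did not pass, at 2.94, 2.94 and 5.94 CPM in steady state and 0.636, 1.58, 0.789 and 3.48 at day 12 (-1.28 ± 0.558, adjusted p = 0.143). Without day 12 library 4 its adjusted p was 0.0136.

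The interleukin 4 and STAT6 axis, through which Tfec is known to be induced, had 12 rising and 4 falling genes among 26 tested. These are 46.2% and 15.4% against 10.1% and 10.2% of all genes. The list was chosen with earlier results of these data known, so these shares are no test of the axis. Its part in the rise of Tfec was not tested. The median was 0.70, also with Pdcd1lg2 at its bound. Arg1 went from 81.1, 114 and 122 CPM to 4854, 4161, 6717 and 4858 CPM (5.61 ± 0.254, adjusted p = 9.15e-06). Klf4, a zinc finger factor that works with STAT6, rose from 58.9 to 83.3 CPM to 345 to 585 CPM (2.73 ± 0.215, adjusted p = 9.11e-05). Cish, a feedback inhibitor of cytokine signals, rose from 1.37 to 1.79 CPM to 7.94 to 12.1 CPM (2.64 ± 0.223, adjusted p = 0.000128). Each of these 3 kept apart between the groups, as did 35% of all tested genes. They were named for their low p, so this is no separate observation. Retnla had 88.5 to 115 CPM in steady state and 8068, 2486, 9449 and 1172 at day 12, with libraries 1 and 3 the highest, as for Mitf.

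Among the other rising genes were Chil3, a chitinase-like lectin (13.68 ± 1.26, adjusted p = 0.000641), which has near-identical copies that make its counts uncertain, and Mgl2, a C-type lectin (3.604, adjusted p = 0.00718). Socs3 and Stat3 rose by 1.65 and 0.62 (adjusted p = 0.00104 and 0.00359). Pdcd1lg2, the checkpoint ligand PD-L2, had no read in the steady-state libraries and 100 reads at day 12, at least 7.51-fold higher than a floor of 3 counts in each steady-state library. Il13ra1 rose by 0.50 (adjusted p = 0.00803; 0.0502 without steady-state library 1), Jak3 by 0.84 (0.0297; 0.115 and 0.122 without steady-state library 1 and 3) and Socs1 by 2.49 (0.0165; 0.0734 and 0.0686 without steady-state library 2 and 3). Stat3 overlaps Stat5a on the other strand.

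Other interleukin 4-responsive genes fell. Irs2, an adaptor of insulin and interleukin 4 receptors, went from 40.7 to 44.2 CPM to 17.9 to 21.8 CPM (-1.14 ± 0.107, adjusted p = 0.0002). Mrc1, the mannose receptor, fell by 1.29 (adjusted p = 0.0117; 0.0501 without steady-state library 3), the chemokine gene Ccl24 by 1.18 (adjusted p = 0.0104) and Fn1, fibronectin, by 0.97 (adjusted p = 0.00823). Stat6 itself did not pass, at 258 to 283 CPM in steady state and 246 to 285 at day 12. Il4ra, the interleukin 4 receptor chain, had 72.0, 78.0 and 75.5 CPM in steady state and 96.6, 104, 95.5 and 188 afterwards, without passing the test (0.69 ± 0.235, adjusted p = 0.0686), but did without day 12 library 4 (0.00438). Spi1, the macrophage factor PU.1, did not pass either (0.50 ± 0.189, adjusted p = 0.0945; 0.0242 without day 12 library 4).

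**Figure D3:**
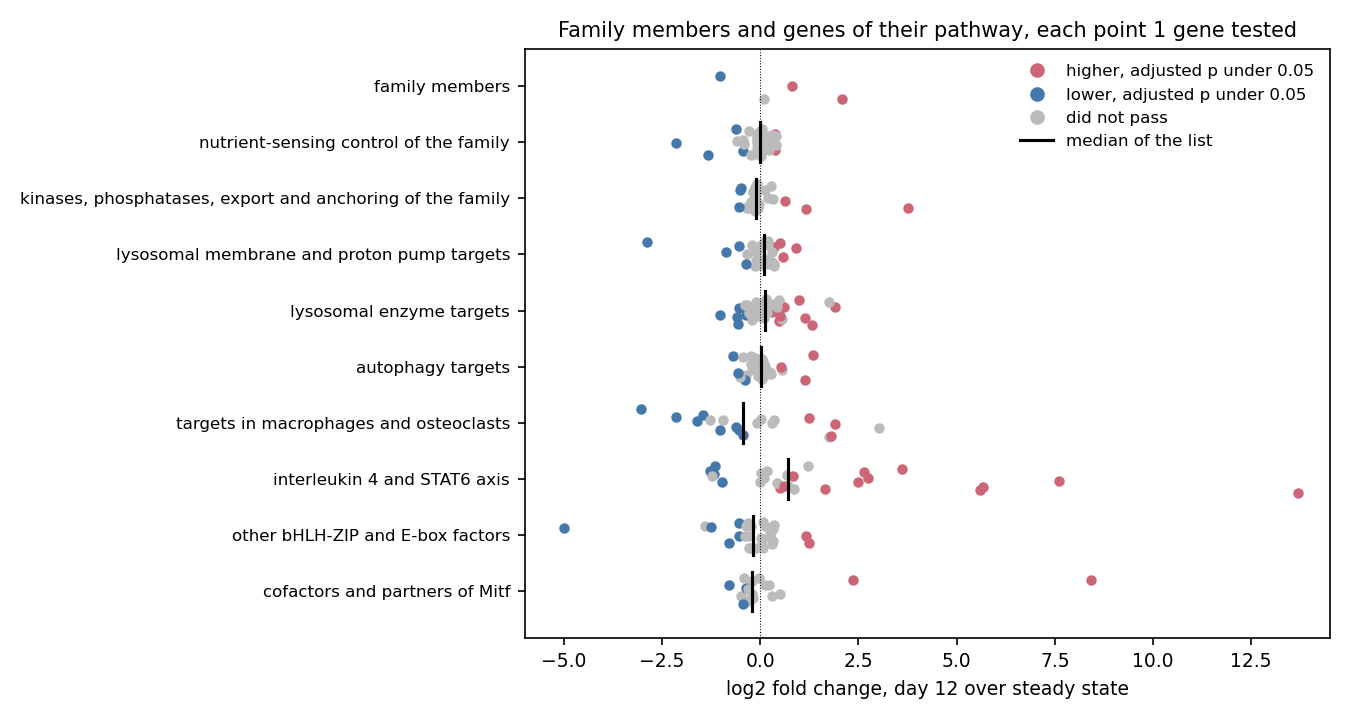
Log2 fold change of day 12 over steady state (horizontal axis) for the 4 family members and each tested gene of 9 pathway lists (rows), with red points higher, blue points lower and grey points not passing an adjusted p of 0.05. Black bars are list medians, which lie between -0.43 for the macrophage and osteoclast targets and 0.70 for the interleukin 4 and STAT6 axis; the fitted values of Pax3 and Pdcd1lg2, at 0 reads in steady state, depend on the prior count.

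Factors outside the family that bind E-boxes or share the bHLH-ZIP fold included 2 rising and 5 falling genes among 28 tested, or 25% against 20.3% of all genes, with a median of -0.17. Bhlhe41, the paralog of Bhlhe40, fell from 14.2, 13.7 and 13.5 CPM to 0.212, 0.679, 0.289 and 0.522 CPM (-5.01 ± 0.327, adjusted p = 4.97e-05), while Bhlhe40 rose. Tcf4, an E protein, fell from 77.5 to 96.1 CPM to 28.6 to 41.0 CPM (-1.25 ± 0.139, adjusted p = 0.00046). Hes1, a Notch target, rose from 9.01 to 9.82 CPM to 17.6 to 24.5 CPM (1.18 ± 0.138, adjusted p = 0.000591). Foxo3 fell by 0.80 (adjusted p = 0.000826) and Mxd4, a partner of Max, by 0.54 (adjusted p = 0.00741). Foxk1, a repressor of autophagy genes, fell by 0.54 (adjusted p = 0.0232), but not without steady-state library 1, 2 or 3 (0.0726 to 0.0952) or day 12 library 1, 2 or 3 (0.0539 to 0.075). Without day 12 library 4 the list counted 12 calls.

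Cofactors and partners of Mitf gave 2 rising and 3 falling genes among 17 tested, or 29.4% against 20.3% of all genes, with a median of -0.21, also with Pax3 at its bound. Fos, a partner of Mitf in osteoclast differentiation, rose from 33.7, 68.2 and 44.0 CPM to 286, 243, 284 and 191 CPM (2.37 ± 0.253, adjusted p = 0.000382). Nfatc1, the main osteoclast factor, fell from 88.9 to 94.6 CPM to 44.0 to 62.9 CPM (-0.80 ± 0.128, adjusted p = 0.00264). Pax3, which activates Mitf in melanocytes, had no read in steady state and 1.99, 0.603, 1.89 and 0.29 CPM at day 12, again highest in libraries 1 and 3 and at least 13.3-fold higher on average than a floor of 3 counts in each steady-state library. Csf1r also fell, as above. Ets2 fell by 0.35 (adjusted p = 0.0351) but was lost without steady-state library 1, 2 or 3 (0.117 to 0.132) or day 12 library 1, 2 or 3 (0.079 to 0.0929), and with a filter of 1 CPM (0.0515). The list counted 3 calls without steady-state library 1, 2 or 3 or day 12 library 1 or 2, and 3 with a filter of 1 CPM.

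**Figure D4:**
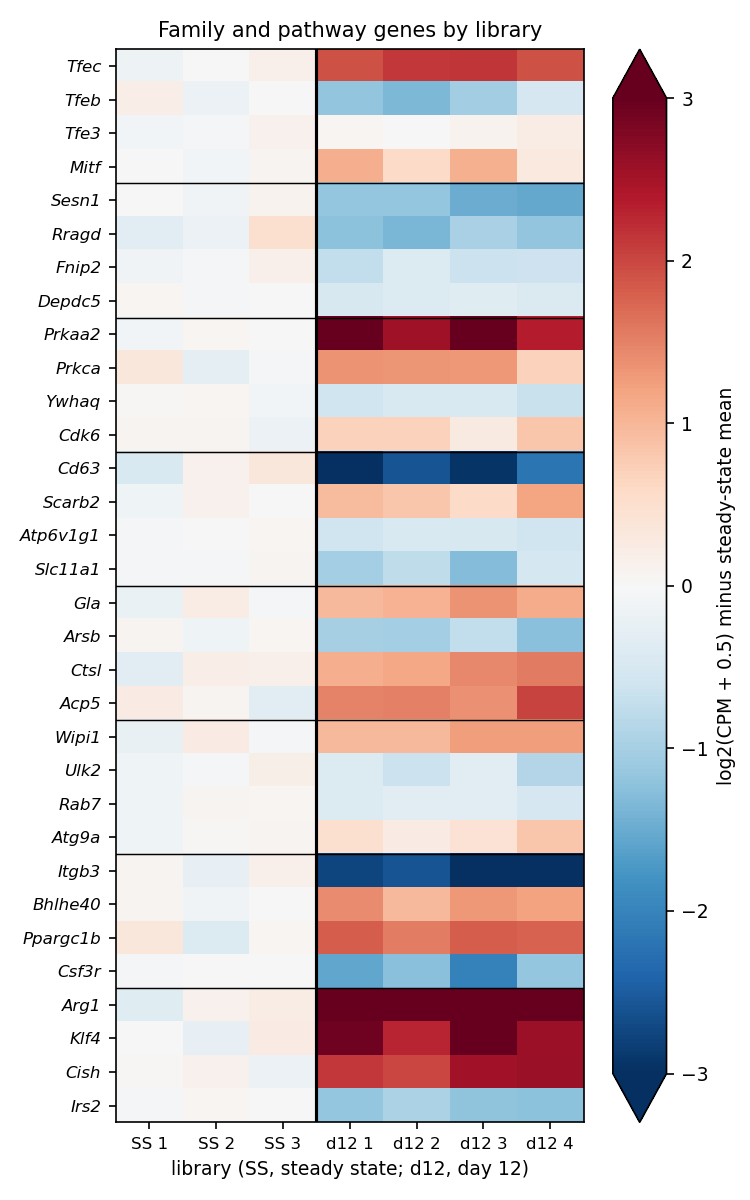
Difference of log2(CPM + 0.5) from the steady-state mean (colour, from -3 to 3, with larger values drawn at the end of the scale) for the 4 family members and 4 genes from each of 7 pathway lists (rows, separated by lines) in the 7 libraries (columns). Tfec is raised in all 4 day 12 libraries like Arg1, Mitf and Prkaa2 are stronger in day 12 libraries 1 and 3, and Tfeb is least lowered in library 4.

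Melanocytes and mast cells are among the other cell types that depend on Mitf, so their markers were read beside it. Of the 10 melanocyte markers, Tyr, Tyrp1, Dct, Slc45a2 and Sox10 had no read in any library, and the summed level of the list was 0.415 to 0.784 CPM in steady state and 0.726 to 2.91 CPM at day 12, where Pax3 was the largest term. The 12 mast cell markers summed to 63.7 to 84.0 CPM and 126 to 198 CPM, nearly all of it Hdc, the histidine decarboxylase that macrophages also express. Tpsab1, Mrgprb1, Mrgprb2 and Gata2 had no read, and Cpa3 and Cma1 did not exceed 0.226 CPM. The defining markers of both cell types were thus at or near 0. Dendritic cell markers summed to 29.7 to 55.1 CPM and 65.7 to 380 CPM, mostly Cd209a (172, 83.6, 373 and 59.3 CPM at day 12), which followed the same higher pair of libraries as Mitf. B cell markers summed to 7.20 to 11.1 CPM and 23.6 to 52.7 CPM and were highest in day 12 library 2. All 10 of them were tested and 5 were called higher at day 12, where 10.1% of all tested genes were. The part of these sums in the changes of the family was not tested. In sorted bulk samples, fewer cells that express a gene and less RNA per cell cannot be told apart.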

How the data were processed

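RNA of resident peritoneal macrophages was sequenced in 7 libraries. Per the labels' protocols, 30 ng of total RNA per library was poly-A selected (NEBNext Ultra II Directional) and sequenced as 100-nt single reads, after a sort of stated purity above 97%. The authors deposited raw counts per gene with no normalisation. The submitters' processing notes name the build GRCm39 and the tools DESeq2 1.40.2, featureCounts, Subread 2.0.6, SAMtools 1.10 and STAR 2.7.11a. Strand setting, annotation release and handling of multi-mapping reads bear on overlapping and near-identical genes, and are stated in none of the labels.

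Groups came from the sample titles. Counts were fitted with edgeR 4.0.16 (R 4.3.3; quasi-likelihood, robust, TMM factors), with filterByExpr at a minimum count of 10 and total of 15, the group as the only term and Benjamini-Hochberg adjustment at 0.05 over 15981 genes. The fit was also run on simulated counts with independent libraries, which does not show how it performs on these data. Each SE of a log2 fold change was derived as its absolute value divided by the square root of the F of the test. Ratios within a library used log2(count + 0.5), and the heat map log2(CPM + 0.5). The test of ratios was a two-sided permutation test, exact over all splits. Alternatives were RLE and upper-quartile factors, library totals, DESeq2 1.42.0, limma-voom 3.58.1, other filters, a replicate block and each library left out. Of each list the 4 genes with the lowest p were named, together with the 4 members and the 3 genes most like each member, 50 genes in all. A further 53 genes, among them the remaining called list members, were named after their values were seen. Members and lists were chosen with earlier results of these data known. List symbols were matched also through RefSeq synonyms, and some list genes are not reported here. Exon lengths came from GENCODE M21 and promoter windows from RefSeq, both on GRCm38, and gene coordinates from the deposited table. Whether libraries of the same replicate number are paired is not known. Correlations of deviations were -0.14, 0.01 and 0.20 for the same number and -0.20 to 0.19 for other pairs, which cannot settle it.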

Additional observations from a re-analysis of the deposited data

Results flagged for a closer look

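In 7 of the 106 named genes and ratios examined, 1 of the 4 day 12 libraries lay apart from the other 3 by Dixon's criterion, which chance alone meets in about 1 of 20 groups. Day 12 library 4 was the distant one for 6 genes. It was higher for Il4ra (188 CPM, others 95.5 to 104), Spi1 (402 CPM, others 233 to 253), Socs3 (660 CPM, others 370 to 382), Atp6v0c (463 CPM, others 309 to 316) and Foxk1 (92.8 CPM, others 64.2 to 67.1). It was lower for Prkca (43.9 CPM, others 67.4 to 69.4). Ctsh was lowest in day 12 library 1 (386 CPM, others 398), a small gap. None of the 4 MiT/TFE genes was among them.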

How the results depend on the processing

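All 4 family members kept their direction and their side of the threshold in the 8 settings that removed no library. Tfec gave 2.07 to 2.12, Tfeb -1.22 to -0.98, Tfe3 0.06 to 0.14 and Mitf 0.76 to 0.92. Among these settings, the replicate block does not use day 12 library 4 for the group difference, as described below. With 1 library left out, Mitf ranged from 0.70 to 0.94 and lost its call in 3 of 7 fits. The ratios of Tfec ranged from 2.96 to 3.34 (to Tfeb), 1.91 to 2.06 (to Tfe3) and 1.202 to 1.474 (to Mitf), where 6 libraries cannot reach the threshold. Numbers of called genes ranged then from 1761 to 4599 over all genes, 3 to 11 in nutrient sensing, 3 to 12 in kinases and anchoring, 4 to 12 in the lysosomal membrane, 7 to 20 in lysosomal enzymes, 1 to 10 in autophagy, 9 to 15 in macrophage and osteoclast targets, 13 to 20 in the interleukin 4 axis, 6 to 12 in other E-box factors and 3 to 7 in Mitf cofactors. DESeq2 called 10 autophagy genes, and a filter of 1 CPM left 3 Mitf cofactors. The replicate block, whose numbers are not known to pair libraries, gave 4278 calls in all. It gave 12 in kinases and anchoring, 21 in lysosomal enzymes, 12 in other E-box factors and 9 in Mitf cofactors. Day 12 library 4 has no steady-state library of its number, so the block gives it a term of its own. The group difference then does not use it, and the fit without that library gave 4599 calls. How much of the difference in counts comes from this was not tested. Log2 values near 0, uncalled throughout, changed sign under the block for Flcn (-0.0309), Stat6 (-0.022) and Sqstm1 (-0.0813) and with no filter for Stat6 (-0.00585). With 1 library left out they ranged from -0.0258 to 0.124 for Flcn, -0.018 to 0.077 for Stat6, -0.0807 to 0.129 for Sqstm1 and -0.163 to 0.00575 for Mcoln1. With no filter on low counts, Lamtor2, Mlst8, Atp6v1b2, Atp6v1e1, Ctsa, Ctsh, Hexa, Atg9b, Csf1r, Ets2, Il1rl1 and Fbxo22 lost their calls (adjusted p 0.0536 to 0.166), with limma-voom Lamtor2, Mlst8, Socs1 and Fbxo22 (0.0505 to 0.0539), with upper-quartile or library-total scaling Ets2 (0.0596 and 0.0522), and under the block Mlst8, Atg9b and Ccl24 (0.0536 to 0.0838). DESeq2 called Il4ra, Spi1, Cd209a and Cpeb4 (0.0155 to 0.0461). Of 1452 values of other named genes under alternatives 1266 kept their call, 152 lost it and 22 gained it. Genes with few reads, such as Rragd, Atg9b, Pax3 and Pdcd1lg2, are limited by depth.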
